A study of Mus musculus with 15 samples.

Results

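Isoform usage was described as the share of each transcript in the summed FPKM of its gene. FPKM is fragments mapped per kilobase of transcript, scaled to the library total. The sum adds up the gene's listed transcripts and is not the FPKM that was deposited per gene. Gene sums below, and wording such as the Pparg FPKM, refer to this sum. Genes were taken when the transcript table listed at least 2 transcripts for them and their summed FPKM was at least 5 in the mean of every group. This chose 4355 of the 10635 genes in the table, or 4355 of the 5821 genes with more than 1 listed transcript. They carry 14294 of the table's 22795 transcripts. The lowest group mean of Pilrb1 was 5.00 and put it just inside the limit, and Apeh at 4.99 was just outside. A transcript was tested when its mean share over all libraries was at least 5%, which left 10630. Of the 4355 genes, 1856 had 2 listed transcripts, 1071 had 3, 647 had 4, 391 had 5 and 390 had 6 or more.

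The cells were MPI cells, a self-renewing macrophage line from C57BL6/J fetal liver of female mice, grown with 30 ng/ml of the growth factor GM-CSF and widely used as a model of alveolar macrophages. All groups, untreated cells included, share that origin and culture. Particles were added for 24 h at doses matched on surface area and not on mass, namely 9 µg/cm2 riebeckite asbestos, 40 µg/cm2 riebeckite cleavage fragments, 5 µg/cm2 tremolite asbestos and 60 µg/cm2 tremolite cleavage fragments. Cleavage fragments are the same minerals in a non-asbestiform habit. Each of these groups and the untreated group had 3 libraries, 15 in all. A description shared by the samples speaks of a vehicle control, while the control libraries are labelled untreated, and that name is used here. Nothing in the labels says that replicates were separate cultures, so p-values measure only the spread between these samples.

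A gene yields several messenger RNAs through alternative first exons with their own promoters, through alternative splicing of internal exons, and through alternative last exons or polyadenylation sites. These choices can change the first or last amino acids of a protein, remove a domain, or alter only untranslated sequence. In macrophages, known cases include a soluble form of a growth factor receptor, and receptor forms with or without an extracellular or cytoplasmic segment.

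The summed FPKM of a library lay between 341548 and 363726, and the 4355 genes held 55.3 to 56.6% of it. Read depth is unknown, because FPKM keeps no count. Macrophage markers were found for 10 of 10 genes and alveolar macrophage markers for 5 of 5. None of the listed markers of fibroblasts, endothelium, T cells, B cells, erythroid cells or hepatocytes was in the table. The epithelial list had only Cdh1 there, at 24.3 to 53.8 FPKM over all libraries against 52.4 to 53.8 in untreated cells. The neutrophil list had only S100a8, at 25.7 to 58.5 FPKM against 25.7 to 31.3 in untreated cells. The part of these in the shares was not tested. Of the tested transcripts, 9303 had no library listed at 0, and 3.19% of all their values were 0.

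Averaged over the 4 particles, 9 of 10630 transcripts (0.0847%) passed limma's moderated test on arcsine square-root shares at a Benjamini-Hochberg adjusted p under 0.05. Of these, 4 had a higher share than in untreated cells (0.0376%) and 5 a lower one (0.047%), and 6 differed by at least 10 percentage points (0.0564%). They belong to 5 of 4355 genes (0.115%), namely Pparg, Sgk1, Ctsc, Cfb and Map6. By a gene-wise Simes p over transcripts, 4 of 4355 genes passed (0.0918%), all but Cfb. The summed FPKM of the same genes passed limma for 1320 of 4355 (30.3%). At an unadjusted p under 0.05 stood 609 share differences (5.73%), and in 92 transcripts (0.865%) the treated libraries did not overlap the untreated ones. The count depended on the test and on single libraries: limma's diffSplice on log2(FPKM + 1) called 94 transcripts, in 64 genes that include these 5, and 18 passed without untreated replicate 2 and 15 without untreated replicate 3. A difference of at least 10 points was seen in 1532 transcripts, and those that did not pass had a median pooled SD within groups of 19.6 points. The plot of all share differences shows the 9 transcripts above the rest.

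**Figure D1:**
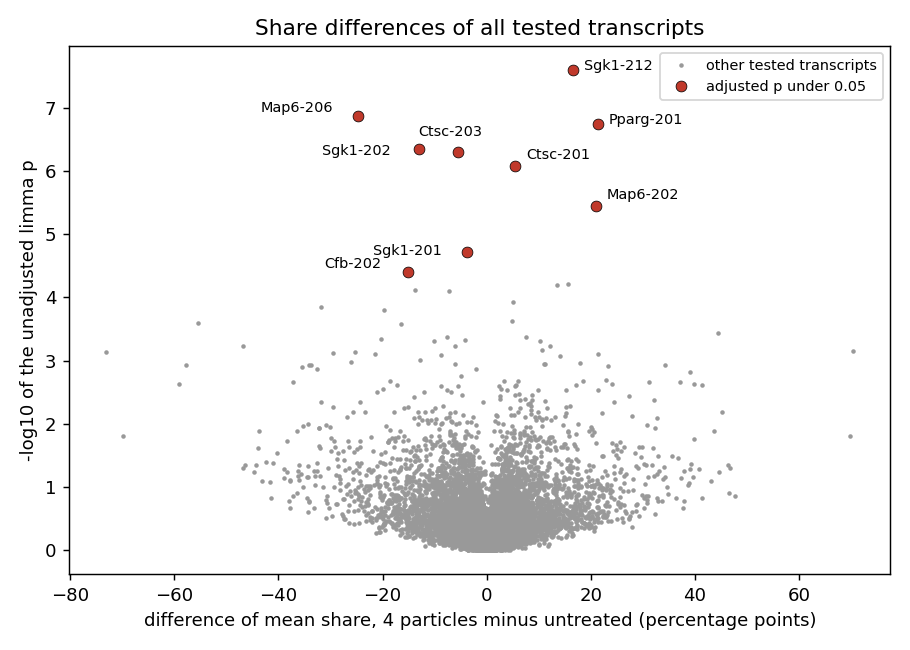
The horizontal axis gives the difference of mean share between the 4 particles and untreated cells in percentage points, and the vertical axis the -log10 of limma's unadjusted p, with 1 point for each of the 10630 tested transcripts. The 9 transcripts with an adjusted p under 0.05 are named, and most points with larger differences lie lower on the vertical axis.

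The structures of these genes are given first, since most of the moves concern which first or last exon a transcript carries. Pparg encodes PPARγ, the nuclear receptor that directs lipid handling and that GM-CSF induces in alveolar macrophages. It lies on the plus strand of chromosome 6 (GRCm38). Pparg-201 (ENSMUST00000000450.4, chr6:115422066-115490399) opens with a coding exon of its own, chr6:115422111-115422192, which supplies the amino-terminal extension known as PPARγ2. Pparg-202 (chr6:115360951-115490399) and Pparg-204 (chr6:115362292-115490394) start upstream, share 1 coding sequence of 1425 bases against the 1515 of Pparg-201, and yield PPARγ1.

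Sgk1, the serum- and glucocorticoid-regulated kinase, lies on the plus strand of chromosome 10 and has alternative first exons that each carry a start codon. Sgk1-212 (ENSMUST00000150089.7, chr10:21992223-21995874) uses the most upstream of them, and it is an incomplete model of 418 bases whose 3′ end was not found. The complete Sgk1-203 (chr10:21992223-21999898) has the same first exon. Sgk1-202 (chr10:21993890-21999891) starts 1667 bases downstream, and Sgk1-201 (chr10:21994666-21999903) starts further into the gene. The first coding exons are shown because they are what a change between these transcripts exchanges, with the start codon in capitals, read from GENCODE M21 transcripts.
Pparg-201: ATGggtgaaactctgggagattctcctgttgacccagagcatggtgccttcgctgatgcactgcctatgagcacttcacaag
Sgk1-212: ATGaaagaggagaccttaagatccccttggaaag
Sgk1-202: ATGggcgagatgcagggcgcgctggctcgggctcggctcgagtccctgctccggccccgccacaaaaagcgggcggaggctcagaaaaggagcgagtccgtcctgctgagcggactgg
Sgk1-201: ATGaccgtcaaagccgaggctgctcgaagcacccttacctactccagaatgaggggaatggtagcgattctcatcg
The coding parts have 82, 34, 118 and 76 bases, so each Sgk1 form begins with a different amino-terminal stretch. The model of Sgk1-212 ends after 267 coding bases, against 1335 in Sgk1-202 and 1293 in Sgk1-201. What follows in the protein of Sgk1-212 is therefore not given.

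Ctsc encodes cathepsin C, the lysosomal dipeptidyl peptidase that activates granule serine proteases, on the plus strand of chromosome 7. Ctsc-201 (ENSMUST00000032779.11, chr7:88278085-88310888) is the full form with 1386 coding bases in 7 exons. Ctsc-203 (ENSMUST00000131108.8, chr7:88278134-88291397) shares its first coding exons with it, then continues in sequence of its own and stops after 411 coding bases. Flt1 encodes VEGF receptor 1 on the minus strand of chromosome 5. Flt1-202 (chr5:147561604-147726011) is the membrane receptor with 3999 coding bases, and Flt1-203 (chr5:147635159-147725988) reads past an exon end into intron sequence and stops after 2064 coding bases, which is the layout of the soluble receptor. The coding tails specific to both short forms are printed with the stop codon in capitals, since they are what ends the protein early.
Ctsc-203: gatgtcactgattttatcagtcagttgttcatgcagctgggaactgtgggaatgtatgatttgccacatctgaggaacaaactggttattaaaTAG
Flt1-203: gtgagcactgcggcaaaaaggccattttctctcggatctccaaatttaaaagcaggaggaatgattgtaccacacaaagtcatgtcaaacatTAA
Their lengths with the stop codon are 96 and 95 bases.

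**Figure D2:**
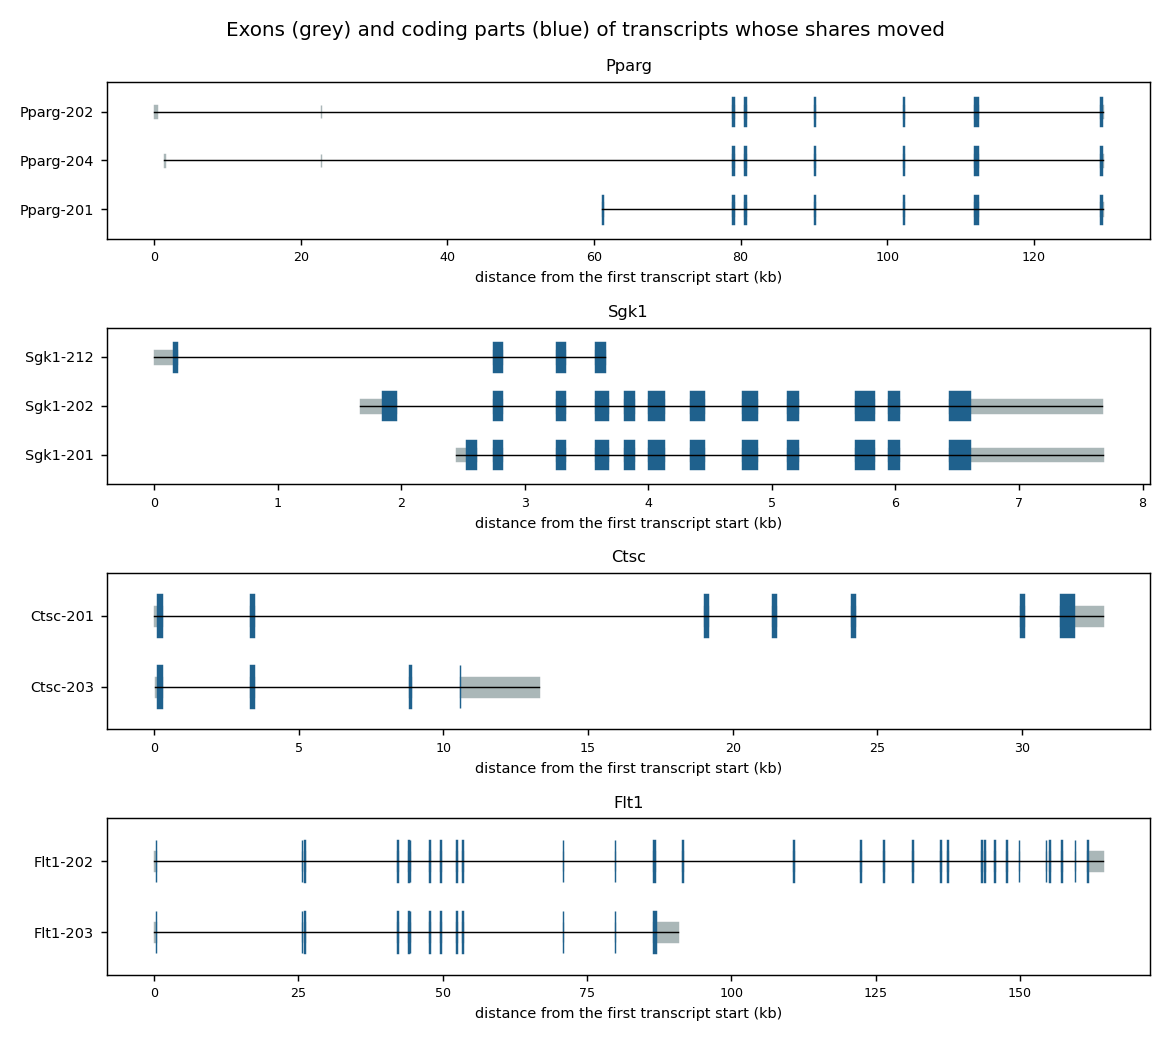
Each row is 1 GENCODE M21 transcript drawn to scale, with the distance from the first transcript start of the gene in kilobases on the horizontal axis, exons as grey boxes and coding parts as taller blue boxes. Pparg and Sgk1 transcripts differ in their first exons, and Ctsc and Flt1 transcripts in where they end.

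The 250 bases before the starts of Pparg and Sgk1 were read from RefSeq promoters (GRCm38.p6), because the moves in both genes were between transcripts with separate starts. The letters searched were TATAAA (the TATA box), CCAAT (the CCAAT box), GGGCGG (the GC box of Sp1-type factors), TGANTCA (the AP-1 site) and TTCNNNGAA (the STAT site). They were searched on both strands, and matches are in capitals. The windows are chr6:115421816-115422065 for Pparg-201, chr6:115362099-115362348 for Pparg-204, whose RefSeq start lies 57 bases from the annotated transcript start, chr10:21991973-21992222 for Sgk1-212 and chr10:21993640-21993889 for Sgk1-202.
Pparg-201 promoter: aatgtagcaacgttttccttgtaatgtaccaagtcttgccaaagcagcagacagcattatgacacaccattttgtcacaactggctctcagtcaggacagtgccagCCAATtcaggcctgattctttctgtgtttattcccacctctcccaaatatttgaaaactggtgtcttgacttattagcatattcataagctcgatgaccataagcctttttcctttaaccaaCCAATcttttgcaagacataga
Pparg-204 promoter: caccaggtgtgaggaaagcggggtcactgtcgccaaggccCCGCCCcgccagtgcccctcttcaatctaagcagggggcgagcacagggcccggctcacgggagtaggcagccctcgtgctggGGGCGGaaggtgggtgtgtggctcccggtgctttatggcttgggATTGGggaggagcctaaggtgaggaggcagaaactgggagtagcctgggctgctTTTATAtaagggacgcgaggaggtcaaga
Sgk1-212 promoter: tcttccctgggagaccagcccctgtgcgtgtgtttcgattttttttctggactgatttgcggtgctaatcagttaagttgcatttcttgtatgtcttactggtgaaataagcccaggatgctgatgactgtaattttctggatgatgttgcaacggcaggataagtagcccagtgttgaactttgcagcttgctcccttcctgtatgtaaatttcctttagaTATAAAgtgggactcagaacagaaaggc
Sgk1-202 promoter: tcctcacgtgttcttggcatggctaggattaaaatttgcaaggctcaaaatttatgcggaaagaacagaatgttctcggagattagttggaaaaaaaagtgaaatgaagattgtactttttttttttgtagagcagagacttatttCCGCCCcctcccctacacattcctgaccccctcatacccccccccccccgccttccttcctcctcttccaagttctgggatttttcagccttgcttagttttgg
The Pparg-201 window held 2 CCAAT matches and none of GGGCGG, and the Pparg-204 window held 2 GGGCGG, 1 CCAAT and 1 TATAAA, the latter pair on the minus strand. The Sgk1-212 window held TATAAA starting 28 bases before the start, position -28, and none of GGGCGG. The Sgk1-202 window held 1 GGGCGG and no TATAAA. Neither TGANTCA nor TTCNNNGAA matched in these windows. Among 32536 RefSeq promoter windows of this length, 12.3% held TATAAA, 33.8% CCAAT, 33.0% GGGCGG, 6.73% TGANTCA and 7.04% TTCNNNGAA.

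The share of the PPARγ2-type transcript rose with the particles. Pparg-201 held 18.2, 18.1 and 20.5% of the Pparg FPKM in the untreated libraries. It held 42.1, 37.3 and 47.6% with riebeckite asbestos and 39.7, 45.0 and 41.1% with riebeckite fragments. With tremolite asbestos the values were 31.8, 34.3 and 38.5%, and with tremolite fragments 41.1, 44.2 and 40.9%. Every treated library lay above every untreated one. The mean went from 18.9% ± 1.39 (SD, n = 3) to a mean of 4 particles that was 21.4 points higher (SE 2.07), with a limma adjusted p of 0.000647.

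Both PPARγ1 transcripts took smaller shares, with p-values just above the limit when each was tested alone. Pparg-204 went from 56.7% ± 1.18 to particle means of 40.1 to 47.8% (limma adjusted p = 0.0653), and Pparg-202 from 22.6% ± 2.31 to 13.8 to 16.1% (limma adjusted p = 0.0653). In each, the 12 treated libraries lay below the 3 untreated ones. Fits that sum transcripts were chosen after seeing the data. With coding sequences summed, the pair differed by -20.9 points for all particles (limma adjusted p = 0.000455). With overlapping first exons summed, Pparg-202 passed, as did the sum of Pparg-204 and Pparg-206 (limma adjusted p = 0.0401 for each). In FPKM, Pparg-201 had 21.9 ± 2.30 in untreated cells and 63.3 ± 7.12, 69.1 ± 4.66, 48.2 ± 6.42 and 63.2 ± 0.536 with riebeckite asbestos, riebeckite fragments, tremolite asbestos and tremolite fragments. Over the same groups the summed FPKM of Pparg-202 and Pparg-204 was 91.7 ± 1.60 untreated and 84.3 ± 8.74, 93.7 ± 5.51, 88.2 ± 5.82 and 85.1 ± 7.32. The gene's summed FPKM rose from 116 ± 3.90 to means of 138 to 165 (log2 difference 0.38 on log2(FPKM + 1), limma adjusted p = 4.96e-06).

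The share of the Sgk1 transcript with the most upstream start also rose. Sgk1-212 held 16.2, 15.4 and 14.6% of the Sgk1 FPKM in untreated libraries. Treated libraries ranged from 24.2 to 38.4% with a median of 32.1%, without overlap. The difference was 16.6 points (SE 1.30) with a limma adjusted p of 0.000269. Group means were 36.4% ± 1.75 with riebeckite asbestos, 32.9% ± 1.61 with riebeckite fragments, 27.8% ± 3.21 with tremolite asbestos and 31.1% ± 1.95 with tremolite fragments. The complete Sgk1-203 has the same first exon and was below the 5% limit for testing. Its share was 0.707% ± 0.0858 in untreated cells and 1.05 to 1.41% in the particle means.

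The shares of both downstream starts of Sgk1 fell. Sgk1-202, the leading transcript, held 70.1, 70.6 and 69.9% in untreated libraries and 52.0 to 63.8% in treated ones, a difference of -13.0 points (SE 1.23, limma adjusted p = 0.00108). Sgk1-201 went from 9.33% ± 0.672 to particle means of 4.86 to 6.25% (limma adjusted p = 0.0254). These were changes of proportion in a gene whose sum rose from 119 ± 5.14 FPKM to means of 369 to 457, a log2 difference of 1.75 on log2(FPKM + 1). Sgk1-202 itself had 83.6 ± 3.61 FPKM untreated and means of 219 to 245 with particles, and Sgk1-212 had 18.3 ± 0.272 untreated and means of 102 to 167 with particles. Sgk1-201 had 11.1 ± 1.24 untreated and means of 22.1 to 23.0 with particles. In FPKM the particle means of all 3 transcripts were thus above the untreated mean, and these transcript levels were not tested on their own. A fit of complete transcripts only, chosen after seeing the data, left out Sgk1-212. No Sgk1 transcript passed there for all particles, so the calls on this gene depend on the incomplete model.

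The short form of cathepsin C lost share. Ctsc-203 held 13.0, 14.5 and 15.1% of the Ctsc FPKM in untreated libraries, and treated libraries ranged from 6.21 to 10.3% with a median of 8.70%. The groups did not overlap, and the difference was -5.59 points (SE 0.408, limma adjusted p = 0.00108). Group means were 7.05% ± 0.776 with riebeckite asbestos, 8.11% ± 0.248 with riebeckite fragments, 10.1% ± 0.291 with tremolite asbestos and 9.30% ± 0.181 with tremolite fragments. The full form Ctsc-201 took up the difference, from 85.0% ± 1.09 to particle means of 88.9 to 92.0% (limma adjusted p = 0.0015). The gene's sum fell at the same time, from 585 ± 13.9 FPKM to means of 353 to 451. In FPKM Ctsc-203 had 83.3 ± 7.56 untreated and means of 25.8 to 45.6 with particles, while Ctsc-201 had 497 ± 10.6 untreated and 321 to 401 with particles. Without the mean-variance trend the adjusted p of Ctsc-203 was 0.139.

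**Figure D3:**
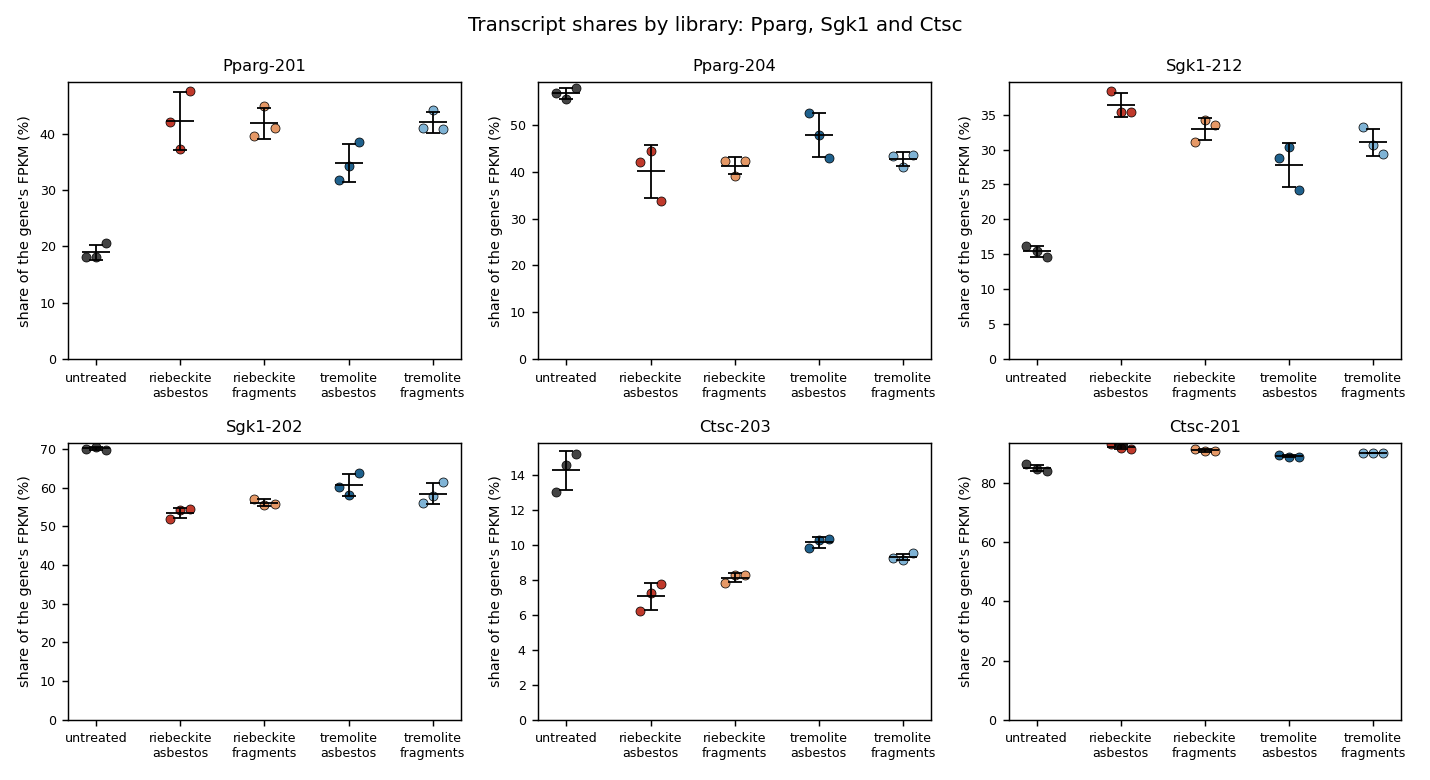
Each panel plots the share of 1 transcript in its gene's summed FPKM in percent, with 1 point per library, a bar at the mean of 3 libraries and the SD as error bar, for untreated cells and the 4 particles. For each of the 6 transcripts the treated libraries lie on 1 side of the untreated ones, and tremolite asbestos has the mean nearest to the untreated mean in the panels of Pparg-201, Sgk1-212 and Ctsc-203.

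**Figure D4:**
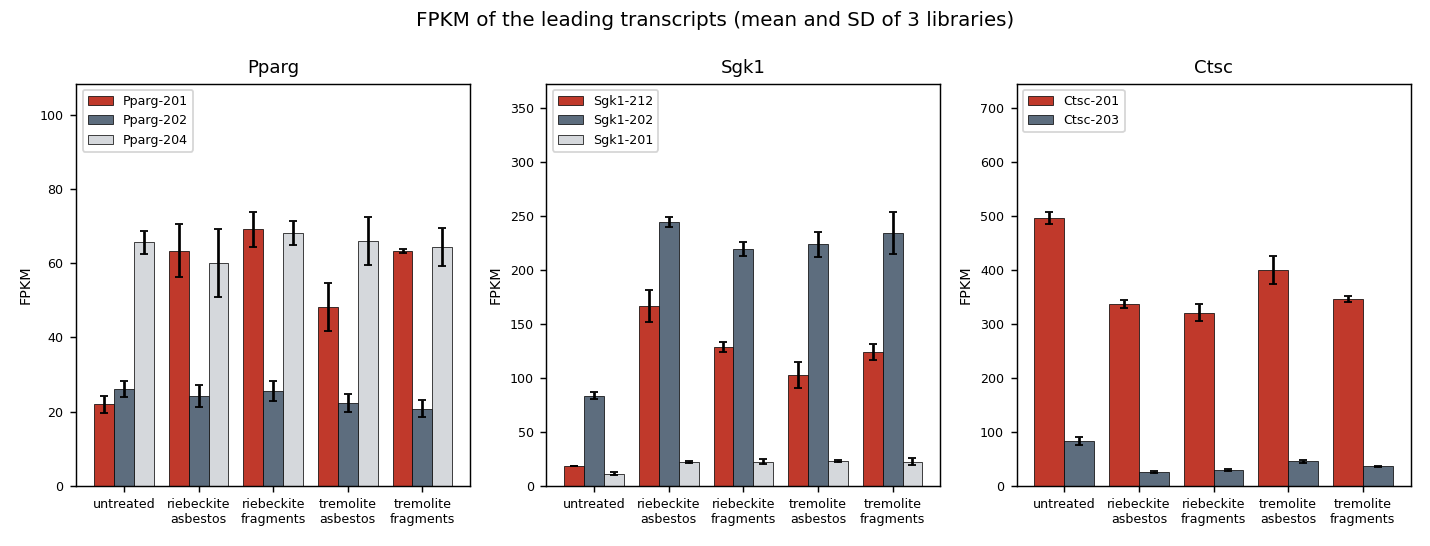
Bars give the mean FPKM of each transcript over 3 libraries with the SD as error bar, for untreated cells and the 4 particles, with a vertical axis starting at 0. The mean of Pparg-201 goes from 21.9 untreated to 48.2 to 69.1 with particles, that of Sgk1-212 from 18.3 to 102 to 167, and the particle means of both Ctsc transcripts lie below the untreated ones.

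Complement factor B, the protease of the alternative complement pathway, had 1 transcript past the limit. Cfb-202 (chr17:34856374-34862518, minus strand) has 2283 coding bases in 18 exons, against 2289 in the leading Cfb-201. It held 10.5, 25.7 and 23.7% of the Cfb FPKM in untreated libraries and 0.829 to 8.45% in treated ones, with a median of 5.10%. The difference was -15.2 points (SE 2.55, limma adjusted p = 0.0466), with no overlap between groups. In FPKM Cfb-202 had 2.39 ± 1.09 untreated and means of 2.57 to 5.38 with particles. Its lower share was thus not a lower mean level of the transcript, and this level was not tested. Cfb-206 differed by more, from 0, 12.6 and 0% in untreated libraries to 8.78 to 57.9% in treated ones, and did not pass (limma adjusted p = 0.37). The sum of Cfb was only 11.7 ± 0.847 FPKM in untreated cells and 64.6 to 142 in the particle means, so the untreated shares rest on low levels. No Cfb transcript passed in 11 of the 12 fits that each left out 1 treated library, all but that without riebeckite asbestos replicate 3, nor in the fit without untreated replicate 3.

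Map6, which encodes a microtubule-stabilizing protein, passed the test of all particles through 1 particle. Map6-206 held 91.0 to 96.9% in untreated libraries and 90.4 to 96.3% with riebeckite asbestos, riebeckite fragments or tremolite asbestos. With tremolite fragments it held 0.0099, 0.00364 and 0.0154%. Map6-202 held 85.0, 78.8 and 89.5% there, and 0.0713 to 1.01% in the other 12 libraries. The difference between tremolite fragments and untreated cells was -94.5 points for Map6-206 (SE 1.59, limma adjusted p = 7.7e-09). Both transcripts lie on the plus strand of chromosome 7 and end at 99337137. They start at 99268406 and 99268346, have the same 918 coding bases and the same introns, and so differ only by 60 bases at the start of the first exon. Summed over the pair, the share was 94.9% ± 2.69 untreated and 84.5% ± 5.39 with tremolite fragments, and the sum did not pass when transcripts with 1 coding sequence were added up (limma adjusted p = 0.5).

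Each particle was then compared with the same untreated libraries. With riebeckite asbestos 7 transcripts of 4 genes passed (0.0659%), and with riebeckite fragments 6 transcripts of 4 genes (0.0564%). With tremolite fragments 9 transcripts of 5 genes passed (0.0847%). With tremolite asbestos limma called 0 of 10630 transcripts (0%), with 564 at an unadjusted p under 0.05 (5.31%). The other tool run, limma's diffSplice, called 53 there. By the gene-wise Simes p, 4 genes passed with riebeckite asbestos, namely Sgk1, Ctsc, Pparg and Os9 (0.0478), and 4 with riebeckite fragments, namely Sgk1, Pparg, Ctsc and Nfkb1 (0.0918% of genes each). With tremolite fragments Map6, Sgk1, Pparg, Ctsc and Flt1 passed (0.115%). Sgk1 and Hipk1 passed with tremolite asbestos (both 0.0423), 2 of 4355 genes (0.0459%). At an unadjusted p under 0.05 stood 828 transcripts with riebeckite asbestos (7.79%), 717 with riebeckite fragments (6.75%) and 490 with tremolite fragments (4.61%). Libraries did not overlap in 15.9% of transcripts with riebeckite asbestos, 12.5% with riebeckite fragments, 11.2% with tremolite asbestos and 10.3% with tremolite fragments. The summed FPKM of the same genes passed in 33.0%, 27.6%, 15.4% and 18.6% of genes in that order. These 4 comparisons share their control libraries, and their calls are set side by side only as values.

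Pparg-201, Sgk1-212 and Ctsc-203 passed with 3 of the particles, and tremolite asbestos gave smaller differences that did not pass in this fit. For Pparg-201 the differences were 23.4, 23.0 and 23.1 points with riebeckite asbestos, riebeckite fragments and tremolite fragments, and 15.9 points with tremolite asbestos (limma adjusted p = 0.0778). For Sgk1-212 they were 21.0, 17.5 and 15.6 points, and 12.4 points with tremolite asbestos (limma adjusted p = 0.0518). For Ctsc-203 they were -7.18, -6.12 and -4.94 points, and -4.11 points with tremolite asbestos (limma adjusted p = 0.166). In fits chosen after seeing the data, tremolite asbestos did pass for Sgk1-212 with coding sequences summed (limma adjusted p = 0.0297). It also passed with first exons summed, for Pparg-201 (limma adjusted p = 0.0305) and for the sum of Sgk1-203 and Sgk1-212 (limma adjusted p = 0.0125). With tremolite fragments the call on Ctsc-201, the counterpart of Ctsc-203, was lost in 12 of the 15 fits that left out 1 library, with limma adjusted p-values up to 0.131, and kept without untreated replicate 1, riebeckite asbestos replicate 1 or tremolite asbestos replicate 1. The test of the difference among the 4 particles did not pass for any of the 3, with limma F test adjusted p-values of 0.809, 0.684 and 0.616. Their order among particles was therefore not resolved.

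That F test among the 12 treated libraries passed for 4 of 10630 transcripts (0.0376%), the pairs of Map6 and Hipk1, with 647 at an unadjusted p under 0.05 (6.09%). Hipk1 encodes a nuclear kinase that phosphorylates homeodomain transcription factors. Hipk1-201 (chr3:103743660-103791256, minus strand) held 38.9, 38.9 and 37.7% in untreated libraries and 10.1, 9.60 and 11.6% with tremolite asbestos. With the other particles it held 41.4 to 60.1%. Every tremolite asbestos library was thus below all 12 others. The range of particle means was 42.4 points with an limma F test adjusted p of 0.00298. Against untreated cells alone the difference with tremolite asbestos was -28.0 points (SE 4.85, limma adjusted p = 0.0688). The gene passed there by the gene-wise Simes p (0.0423). Hipk1-201 also passed with overlapping first exons summed, a fit chosen after seeing the data (limma adjusted p = 0.0293). In the fit of complete transcripts only it did not (limma adjusted p = 0.0894). Hipk1-203 (chr3:103739815-103791563) has the same 3630 coding bases, another first exon, and a 3′ end that runs 3845 bases further, so the pair differs in untranslated sequence only. In FPKM Hipk1-201 had 2.29 ± 0.16 with tremolite asbestos and 11.8 ± 0.158 untreated, against 19.6 ± 0.844 and 18.9 ± 0.474 for Hipk1-203.

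The soluble form of Flt1 took a smaller share with tremolite fragments. Flt1-203 held 33.3, 35.6 and 35.2% in untreated libraries and 22.8, 23.0 and 23.8% with tremolite fragments. With the other particles it held 30.9 to 34.9%. The difference with tremolite fragments was -11.5 points (SE 1.14, limma adjusted p = 0.0379), with the opposite sign for the receptor form Flt1-202. In FPKM Flt1-203 had 17.6 ± 1.85 untreated and 9.45 ± 0.552 with tremolite fragments, and Flt1-202 had 33.1 ± 2.03 and 31.3 ± 0.946. The difference among the 4 particles did not pass (limma F test adjusted p = 0.189). The call against untreated cells was lost in 13 of the 15 fits that left out 1 library, with adjusted p-values up to 0.157, and kept without riebeckite fragment replicate 2 or tremolite asbestos replicate 1.

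Nfkb1, which encodes p105, the precursor of the NF-κB subunit p50, passed with riebeckite fragments. Nfkb1-201 (chr3:135584655-135691546, minus strand) held 0.597, 0.986 and 0.492% in untreated libraries and 51.1, 63.3 and 62.0% with riebeckite fragments. Riebeckite asbestos libraries were scattered, at 23.3, 44.7 and 13.0%, and both tremolite groups ranged from 0.206 to 18.0%. The difference with riebeckite fragments was 58.1 points (SE 7.50, limma adjusted p = 0.0183). Nfkb1-206 (chr3:135585278-135667799) has the same 2913 coding bases and starts further downstream, and its share was 36.4% ± 4.05 untreated and 10.5% ± 2.26 with riebeckite fragments. In FPKM Nfkb1-201 had 0.0954 ± 0.0285 untreated and 11.7 ± 1.10 with riebeckite fragments. Nfkb1-203, which led the gene in the untreated mean, is an incomplete model whose 5′ end was not found. It had 8.87 ± 1.85 and 6.15 ± 1.21 FPKM. In fits chosen after seeing the data, Nfkb1-201 passed with first exons summed (limma adjusted p = 0.0125). It also passed with complete transcripts only, without Nfkb1-203 (limma adjusted p = 0.0267). Summing transcripts with 1 coding sequence left 37.1% ± 4.06 untreated and 69.3% ± 4.50 with riebeckite fragments, which did not pass (limma adjusted p = 0.452). The call was also lost without untreated replicates 1 or 3, or riebeckite fragment replicates 2 or 3, with adjusted p-values of 0.0937, 0.0704, 0.0545 and 0.0597.

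**Figure D5:**
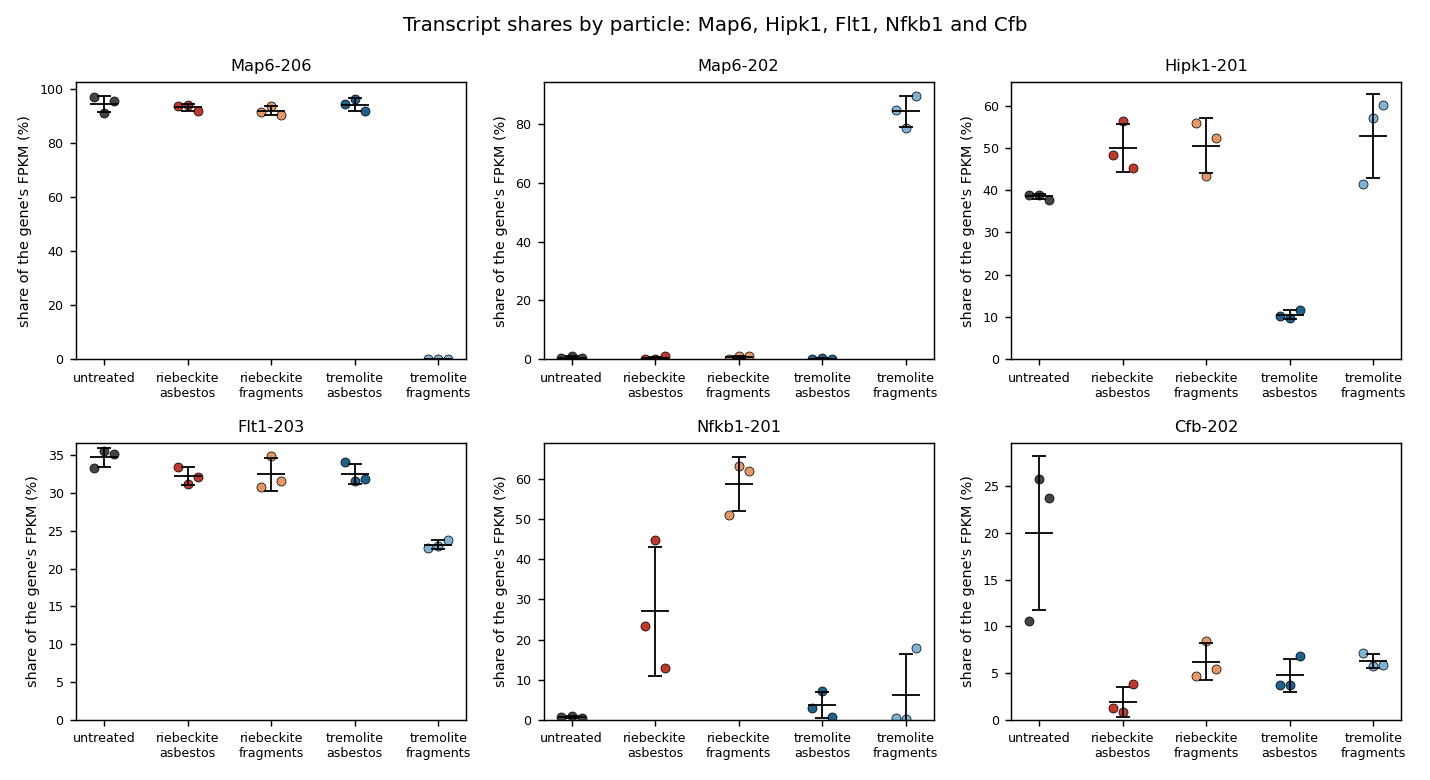
Each panel plots the share of 1 transcript in its gene's summed FPKM in percent, with 1 point per library, a bar at the mean of 3 libraries and the SD as error bar. Map6-206 and Map6-202 exchange places with tremolite fragments, Hipk1-201 lies near 10.5% with tremolite asbestos, Flt1-203 lies near 23.2% with tremolite fragments, and Nfkb1-201 lies near 58.8% with riebeckite fragments.

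The 8 lists of genes were read against this background, in which 5 of 4355 genes had a transcript past the limit for all particles (0.115%). Over all tested transcripts, 609 of 10630 (5.73%) stood at an unadjusted limma p under 0.05. The counts of each list are to be set beside that share, and no set test was run. The median over all genes of a gene's largest share difference was 3.61 points. Among regulators of splicing, 53 of 69 listed genes were members and 0 had a transcript called by limma, with 9 of 177 transcripts at an unadjusted p under 0.05 and a median largest difference of 3.81 points. Clk3 is a kinase of SR splicing factors, and Clk3-201 went from 27.6, 53.5 and 45.6% to 50.5 to 69.7% (limma adjusted p = 0.37). Rbm25-215 had 3.04 to 5.03% in untreated libraries and 5.50 to 8.65% in treated ones (limma adjusted p = 0.37). The shares of Hnrnpa3-207 differed by -8.72 points with an adjusted p of 0.928.

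Factors of 3′ end processing had 13 of 21 listed genes among the members, 0 called by limma, and a median of 3.29 points. Of their transcripts, 7 of 39 were at an unadjusted limma p under 0.05, beside 609 of 10630 (5.73%) among all tested. This difference in proportion was not tested. Papola encodes the canonical nuclear poly(A) polymerase, and Papola-203 was listed at 1.78, 0 and 0% in untreated libraries and at 0 to 18.0% in treated ones (limma adjusted p = 0.233). Cstf2-201, of the cleavage factor CstF-64, had 54.5 to 74.7% untreated and 5.82 to 69.8% treated (limma adjusted p = 0.651). Fip1l1-201 had 62.2 to 67.9% untreated and 12.2 to 60.6% treated (limma adjusted p = 0.767). The treated libraries of both spanned wide ranges.

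Immune receptors and cytokines had 44 members by gene identifier for 96 listed genes, with Lilrb4a counted under separate identifiers. Of these, 0 were called by limma, with 8 of 93 transcripts at an unadjusted p under 0.05 and a median of 1.94 points. Msr1-202 is the shorter scavenger receptor A form that lacks the last extracellular domain, and it held 82.5, 82.7 and 86.3% untreated against 73.7 to 80.4% treated, -6.05 points (SE 1.15, limma adjusted p = 0.264). Fcgr2b-201 codes for the inhibitory Fc receptor with the longer cytoplasmic part, in 1020 coding bases, a number that Fcgr2b-204 has too. Fcgr2b-201 held 41.1 to 44.5% untreated and 35.9 to 40.6% treated (limma adjusted p = 0.434). Tgfbr2-201 held 19.5 to 21.3% untreated and 21.3 to 25.8% treated (limma adjusted p = 0.728). In these 3 genes the libraries did not overlap, as in 92 of 10630 transcripts (0.865%), but none passed the test.

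NF-κB, inflammasome and survival signalling had 52 of 83 listed genes as members and 0 called by limma for all particles. At an unadjusted limma p under 0.05 were 17 of 140 transcripts, beside 609 of 10630 (5.73%) among all tested. This difference in proportion was not tested. The median largest difference was 5.77 points, and Nfkb1 was the 1 gene called with riebeckite fragments. Syk-203, which shares its coding sequence with Syk-201 and starts 13680 bases upstream, held 82.7 to 83.7% untreated and 70.2 to 80.1% treated (limma adjusted p = 0.215). Syk is the kinase downstream of immunoreceptors.

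Central and lipid metabolism had 29 of 47 listed genes as members, of which Pparg was called, 5 of 69 transcripts at an unadjusted p under 0.05, and a median of 3.11 points. Plin2-207, of the lipid droplet coat protein, held 20.7 to 27.9% untreated and 17.8 to 26.8% treated (limma adjusted p = 0.854). Glud1-201 held 99.5 to 99.8% untreated and 98.7 to 99.7% treated. Lysosome and vesicle traffic had 37 of 51 listed genes as members, of which Ctsc was called, 6 of 76 transcripts at an unadjusted p under 0.05, and a median of 1.70 points. Tfeb and Tfe3 are transcription factors of lysosomal genes. Tfeb-201 uses a start 48690 bases downstream of Tfeb-202 and held 25.7, 26.8 and 3.64% untreated against 21.3 to 57.7% treated (limma adjusted p = 0.373). Tfe3-203 held 0.426, 77.7 and 0.66% untreated, so that a single untreated library decided its mean, and 21.7 to 86.5% treated (limma adjusted p = 0.561).

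Oxidative stress, iron and metal handling had 28 of 49 listed genes as members, 0 called by limma, 5 of 62 transcripts at an unadjusted p under 0.05, and a median of 2.77 points. Prdx5-201, of a peroxiredoxin, held 45.2 to 62.0% untreated and 27.8 to 57.2% treated (limma adjusted p = 0.561). Prdx2-201 held 47.5 to 53.6% untreated and 50.2 to 69.2% treated (limma adjusted p = 0.703). The difference of Ncoa4-207, of the ferritin autophagy receptor, was 4.72 points (limma adjusted p = 0.93). Cytoskeleton and adhesion had 42 of 57 listed genes as members, 0 called by limma, 8 of 129 transcripts at an unadjusted p under 0.05, and a median of 2.99 points. Spp1-201, of osteopontin, held 16.7 to 18.3% untreated and 14.3 to 16.4% treated (limma adjusted p = 0.276), while the gene's sum went from 744 ± 39.4 to means of 1884 to 3141 FPKM. Capg-201 held 47.0 to 48.1% untreated and 0.487 to 48.2% treated. Lsp1-205 held 63.9 to 70.0% untreated and 53.4 to 67.2% treated.

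Shares varied between replicates by amounts that depended on expression. The pooled SD within groups had a median of 6.39 points over all tested transcripts and a range from 1.69 to 21.3 points between its 10th and 90th percentiles. It was 8.15 points at the median in the lowest tercile of summed FPKM, 6.45 in the middle and 4.36 in the highest. In 647 transcripts (6.09%) the untreated libraries alone spanned more than 50 points. The median SE of a difference was 4.12 points for all particles and 5.22 for a single particle, against a median absolute difference of 2.82 points. A difference of at least 10 points was seen in 1532 transcripts (14.4%), of which 6 passed, and the others had a median pooled SD of 19.6 points. The 9 transcripts past the limit had a median pooled SD of 1.95 points.

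The leading transcript was the same in all 15 libraries in 2672 of 4355 genes (61.4%). It differed between the untreated mean and the mean of the particles in 326 genes (7.49%), and between 2 untreated libraries in 597 to 638 genes. Between an untreated and a treated library it differed in 569 to 688 genes. In 0 genes did every untreated library have 1 leading transcript and every treated library the other. Pparg-204, Sgk1-202 and Ctsc-201 led their genes in the untreated mean. The 2 leading transcripts of a gene had first exons without overlap in 1660 of 4332 annotated genes (38.3%), last exons without overlap in 1316 (30.4%), and the same coding sequence in 840 (19.4%).

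The median share of the leading transcript was 80.3% ± 0.0507 (SD, n = 3) in untreated libraries and 80.2% ± 0.308 (n = 12) in treated ones, with a two-sided exact permutation p of 0.593 over 455 assignments. By particle the difference was -0.445 points with riebeckite asbestos and -0.261 with riebeckite fragments, both without overlap with untreated libraries, and 0.151 with tremolite asbestos and 0.125 with tremolite fragments, both with overlap. The exact permutation p was 0.1 for each riebeckite particle (0.375 adjusted over 15 such tests), 0.4 for tremolite asbestos and 0.3 for tremolite fragments. The effective number of transcripts was the exponential of the Shannon entropy of a gene's shares. Its median was 1.743 ± 0.00453 untreated and 1.741 ± 0.00642 treated (exact permutation p = 0.527). The median share-weighted transcript length was 2709 ± 7.13 bases untreated and 2698 ± 8.85 treated, a difference of -11.4 bases (exact permutation p = 0.0615, and 0.375 adjusted over 15 such tests). For a single particle, 3 against 3 libraries cannot give an exact p under 0.1.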

How the data were processed

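RNA was oligo(dT) selected and libraries kept strand with dUTP, per the labels' protocols. The authors deposited a transcript table in FPKM, and the submitters' processing notes name cutadapt, HISAT2, StringTie and GRCm38, with versions not given in the sources used here. Neither counts nor depth are given by these values, so no count test was run and no counting interval can be stated.

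Each transcript's FPKM was divided by the sum over its gene. This sum was mostly above the separately deposited FPKM per gene, with a median ratio of 1.47. It equalled that value within 1% in 71 of the 4354 chosen genes that have one. Shares and changes of the sum are therefore not fractions of, or changes in, the deposited gene FPKM. The reason for the gap was not tested. Shares entered limma 3.58.1 (R 4.3.3) after an arcsine square-root transform, with all 15 libraries in 1 fit, a mean-variance trend and Benjamini-Hochberg adjustment over all 10630 transcripts. Contrasts were all particles, each particle, and an F test among particles. Differences and SE are given in percentage points. Gene sums were tested on log2(FPKM + 1). Medians per library were compared by exact permutation tests. Structures came from GENCODE M21, in which 99.7% of transcript identifiers were found, and promoters from RefSeq.

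Named genes were those past the limit with libraries that did not overlap (up to 20 for all particles, 5 for each particle), up to 6 past the F test, and up to 3 with the smallest gene p in each list, with the transcript of largest difference printed. A gene that the rule names is not reported here. Other transcripts were added after their values were seen. The members and lists were chosen with earlier results of these data known. The fits were tested on simulated data. Alternatives are given in the closing section.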

Additional observations from a re-analysis of the deposited data

Results flagged for a closer look

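In 2 genes the shares differed among the 4 particles by limma's F test over the treated libraries. For Map6 the adjusted p was 1.23e-08 for Map6-206 and 5.76e-08 for Map6-202, which exchanged shares in the 3 libraries of tremolite fragments. For Hipk1 it was 0.00298 for Hipk1-201 and 0.00298 for Hipk1-203, a pair that holds the whole of the gene's FPKM, and the 3 libraries of tremolite asbestos stood apart. The Map6 pair has 1 coding sequence and the same introns, and its difference did not pass once the pair was summed (limma adjusted p = 0.685 for the F test).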

How the results depend on the processing

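Pparg-201 and Sgk1-212 kept their direction and their call for all particles under every alternative in which they were tested. Ctsc-203 did so under all but the fit with no mean-variance trend. In the fit of complete transcripts only, Sgk1-212 was left out as incomplete, and no Sgk1 transcript passed for all particles. The call on Ctsc-201 with tremolite fragments was lost under 16 of 32 alternatives. Counts of calls moved more. Counts of called genes in this section are by the gene-wise Simes p, which can differ from the number of genes that hold a called transcript. With untransformed shares, for example, 10 genes held a called transcript. Untransformed shares gave 18 transcripts for all particles, 7 genes and 12 transcripts with at least 10 points. A log2 ratio to the gene's other transcripts gave 3 for tremolite asbestos and 4 for tremolite fragments with a pseudocount of 0.1, and 11 genes, 4 and 4 with a pseudocount of 1. Without a limit on shares tremolite asbestos had 2, and with shares of at least 10% it had 1 and riebeckite asbestos 4. A summed FPKM of at least 10 gave 3 for tremolite asbestos and 2 among particles, and of at least 1 gave 8 genes and 14 for tremolite fragments. With the gene table as denominator there were 3 of at least 10 points, 4 for tremolite asbestos and 7 among particles. Without the trend there were 5 for all particles, 3 for riebeckite asbestos, 3 for riebeckite fragments and 4 for tremolite fragments. Robust estimation gave 1 for tremolite asbestos. Fits of only the groups compared gave 28 for riebeckite asbestos, 11 for tremolite asbestos, 15 for tremolite fragments and 8 among particles. These could not be made for all particles.

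The limma diffSplice test on log2(FPKM + 1) called 94 transcripts, 56 genes and 65 of at least 10 points for all particles, and 167, 109, 53 and 40 for riebeckite asbestos, riebeckite fragments, tremolite asbestos and tremolite fragments. It gives no F test among particles. The remaining fits of this paragraph were chosen after seeing the data. With a pseudocount of 0.1 diffSplice called 56, 38 and 35, and 121, 89, 51 and 36. Transcripts with no library at 0 gave 1 for tremolite asbestos. Summing transcripts with the same coding sequence gave 1 there and 0 among particles by limma, where 647 transcripts had stood at an unadjusted p under 0.05 before summing. Hipk1 was not tested in that fit, since its 2 listed transcripts have 1 coding sequence. Summing overlapping first exons gave 2 genes, 5 for tremolite asbestos, 3 for tremolite fragments and 2 among particles. Complete transcripts gave 4 for riebeckite asbestos. With first exons summed, Cfb-206, all particles against untreated, turned to -0.0404 points and Spp1-201 turned to 0.413 with coding sequences summed. The difference in the median effective number of transcripts turned to 2.89e-05 with a summed FPKM of at least 1 and to 0.00368 with at least 10, and that in the median share-weighted transcript length went to -12.3 bases (exact permutation p = 0.00879) and 0.686 bases. The causes were not tested.

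Leaving out 1 library at a time gave 8 to 18 transcripts for all particles, 4 to 11 genes, 5 to 15 of at least 10 points, and 4 to 12 among particles. It gave 5 to 15 for riebeckite asbestos, 6 to 18 for riebeckite fragments, 0 to 12 for tremolite asbestos and 4 to 16 for tremolite fragments. Genes with another leading transcript numbered 318 to 386. Differences ranged from -0.00524 to -0.0009 in effective number, -0.145 to -0.0617 points in leading share and -15.3 to -8.25 bases in length. The highest counts for all particles came without untreated replicate 2 (18) and untreated replicate 3 (15). For tremolite asbestos the count was 12 without its replicate 2 and 9 without untreated replicate 2. Leaving out any of the 12 treated libraries also moved at least 1 count for a single particle or among particles by over 1.5 times, among them riebeckite asbestos replicate 2 (13 for that particle) and riebeckite fragments replicate 2 (15 for that particle). Without untreated replicate 1 the median share-weighted transcript length differed by -15.3 bases, and without tremolite fragments replicate 2 by -12.9 bases, with exact permutation p-values of 0.044 and 0.022.

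The labels give all groups replicate numbers 1 to 3. Correlations of same-numbered libraries' deviations were -0.0557 to 0.0556, with 0 of 30 over 0.1. Pairs with other numbers had -0.0644 to 0.0494. Since shares vary between replicates, such values cannot tell whether same-numbered libraries were handled together, and the labels do not say. With the replicate block the counts were 7 for all particles, 4 genes, 5 of at least 10 points, 5 for riebeckite asbestos, 5 for riebeckite fragments, 0 for tremolite asbestos, 7 for tremolite fragments and 4 among particles.

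FPKM keeps no depth, and the pooled SD of shares (median 6.39 points) limits what 3 libraries a group can resolve. Sgk1-212 is an incomplete model, and transcripts of incomplete models were in the leading pair of 1176 of 4332 genes.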

Other observations

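Transcripts of 3 further genes were looked at after their values were seen. The first 2 stood just outside the limit for all particles. Eif2b5-201, of a subunit of the translation initiation factor that exchanges guanine nucleotides on eIF2, held 80.7, 84.8 and 84.2% in untreated libraries and 85.4 to 100% in treated ones (limma adjusted p = 0.061). Mkrn1-204, of a RING-type ubiquitin ligase, held 10.8, 9.94 and 18.5% untreated and 20.5 to 32.1% treated (limma adjusted p = 0.061). Os9-201, of a lectin that takes part in the disposal of misfolded proteins from the endoplasmic reticulum, held 49.5, 47.7 and 41.9% untreated and 60.7, 63.5 and 65.7% with riebeckite asbestos. With that particle Os9 passed by the gene-wise Simes p (0.0478) and Os9-201 did not as a transcript (limma adjusted p = 0.0519), and for all particles its adjusted p was 0.2. In Capg, Capg-201 stood at 0.571% in riebeckite asbestos replicate 2 and 0.487% in riebeckite fragments replicate 2, and at 42.7 to 48.2% in the other 13 libraries.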
